A study of Homo sapiens with 6 samples.

Results

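The TGF-beta ligands TGFB1, TGFB2 and TGFB3, their receptors TGFBR1 and TGFBR2, the signal transducer SMAD3, its inhibitor SMAD7 and the matrix-associated target genes CCN1 and CCN2 were followed in DMS-53 cells exposed to iron chelators. All probe sets annotated with exactly 1 of these 9 gene symbols were taken, which gave 22 of the 54675 probe sets on the array. The 9 genes were selected on pathway membership with differences of some of them in these same arrays already known, so their values are a description and no test is drawn from them. A low-intensity filter was applied (a mean of at least 5.55 on the log2 scale, the 25th percentile of all probe sets). The 62 Affymetrix control probe sets of the array were also left out. This left 40950 probe sets for testing, 19 of them members. The 3 members below the filter were 220406_at of TGFB2, 1555540_at of TGFB3 and 205397_x_at of SMAD3.

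DMS-53 is an established human small cell lung cancer line. Cells grew for 24 h in RPMI medium alone, with 250 µM of desferrioxamine (DFO, an iron chelator) or with 25 µM of Dp44mT (a thiosemicarbazone that also chelates iron), and total RNA was hybridised to Affymetrix human expression arrays. Each of the 3 groups has 2 arrays, named set 1 and set 2 as in the titles. Whether the 2 arrays of a group stem from different cultures is not stated. P-values thus reflect only array-to-array spread, possibly technical in origin. The doses of the chelators differ, and both chelators were compared with the same 2 control arrays.

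TGF-beta ligands are secreted in a latent form and, once activated, bind TGFBR2, which recruits and phosphorylates TGFBR1. The receptor complex phosphorylates SMAD2 and SMAD3, which join SMAD4 and enter the nucleus to regulate target genes. SMAD7 is a target that feeds back on the receptors. CCN1 and CCN2, formerly CYR61 and CTGF, are secreted proteins that bind integrins and proteoglycans in the matrix. Their transcription is known to respond to TGF-beta and to the YAP and TEAD factors. In lung cancer the pathway is known both for growth restraint and for effects on the tumour stroma.

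Promoter sequence is shown for TGFB2 and CCN2, the members with the widest differences between groups. RefSeq windows (GRCh38.p14) were found for 8 of the 9 genes, 23 windows in all, and the 250 bases before each start were searched. Capitals mark GGAATG, the core of a TEAD site, and ACGTG, the core of a hypoxia response element, on either strand. The TGFB2 window is chr1:218345086-218345335 on the plus strand, and the CCN2 window is chr6:131951373-131951622 on the minus strand.
TGFB2: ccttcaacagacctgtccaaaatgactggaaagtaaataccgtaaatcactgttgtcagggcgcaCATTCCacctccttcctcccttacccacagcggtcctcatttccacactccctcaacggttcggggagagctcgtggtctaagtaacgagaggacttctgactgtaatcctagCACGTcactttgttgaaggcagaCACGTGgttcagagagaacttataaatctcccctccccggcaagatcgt
CCN2: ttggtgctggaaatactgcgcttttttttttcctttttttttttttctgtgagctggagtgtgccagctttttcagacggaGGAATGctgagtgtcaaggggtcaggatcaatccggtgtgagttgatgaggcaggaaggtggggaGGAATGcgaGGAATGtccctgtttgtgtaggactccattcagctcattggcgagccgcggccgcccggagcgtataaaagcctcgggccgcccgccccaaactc
The CCN2 window held GGAATG at 169, 104 and 95 bases before the start and no ACGTG. The TGFB2 window held CATTCC, the reverse complement of GGAATG, at 185 bases before the start. It also held CACGT at 72 and 49 bases and ACGTG at 48 bases before the start. The last pair overlaps in CACGTG, which reads the same on both strands. Among all 35116 windows of this length, GGAATG was found on either strand in 11.9% and ACGTG in 18.5%. Among the members, GGAATG occurred in 1 window each of CCN2, TGFB2 and TGFBR1. ACGTG occurred in 7 of the 23 windows, those of TGFB2, TGFB3, TGFBR1, TGFBR2 and SMAD3. The SMAD3 and SMAD4 binding letters AGCCAGACA (0.231% of all windows) and GTCTAGAC (0.182%) and the cyclic AMP response element TGACGTCA (1.65%) were in no member window. At such low shares, absence from 23 windows says little. Shorter SMAD binding letters were not searched, so these windows are not shown to lack SMAD sites. The AP-1 letters TGACTCA (4.2% of all windows) were in 1 SMAD3 window.

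Deposited intensities were not on a common scale. The array medians were 88.9 and 88.8 for the controls, 85.5 and 63.0 for DFO and 83.6 and 49.9 for Dp44mT, so both set 2 chelator arrays were dimmer. After quantile normalisation these 2 arrays still stood apart on the leading principal component, at 74.2 and 129 against -93.9 to -0.869 for the other 4. The correlation between the 2 arrays of a group was 0.970 for control, 0.907 for DFO and 0.886 for Dp44mT. Neuroendocrine markers were present in the controls, with INSM1, a neuroendocrine transcription factor, at 5061 and 7075. Differences are given on the normalised log2(intensity + 16) scale, with 95% intervals from limma that are not adjusted for multiple testing, beside the deposited intensities. In that fit 241 probe sets (0.589% of those tested) passed an adjusted p of 0.05 for DFO against control, 670 (1.64%) for Dp44mT against control, and 0 (0%) for Dp44mT against DFO, where 1347 had an unadjusted p under 0.05.

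Of the 19 tested member probe sets, 0 passed the threshold for DFO and 3 for Dp44mT. All 3 belong to TGFB2 and were lower, a direction in which 0.564% of all tested probe sets passed. The median log2 difference over the 19 was 0.30 for DFO and 0.24 for Dp44mT, beside -0.04 and 0.01 over all tested probe sets. The arrays of the 2 groups did not overlap for 14 of 19 member probe sets for DFO, 13 for Dp44mT and 10 for Dp44mT against DFO. The corresponding shares of all tested probe sets were 44.8%, 61.3% and 25.4%.

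**Figure D1:**
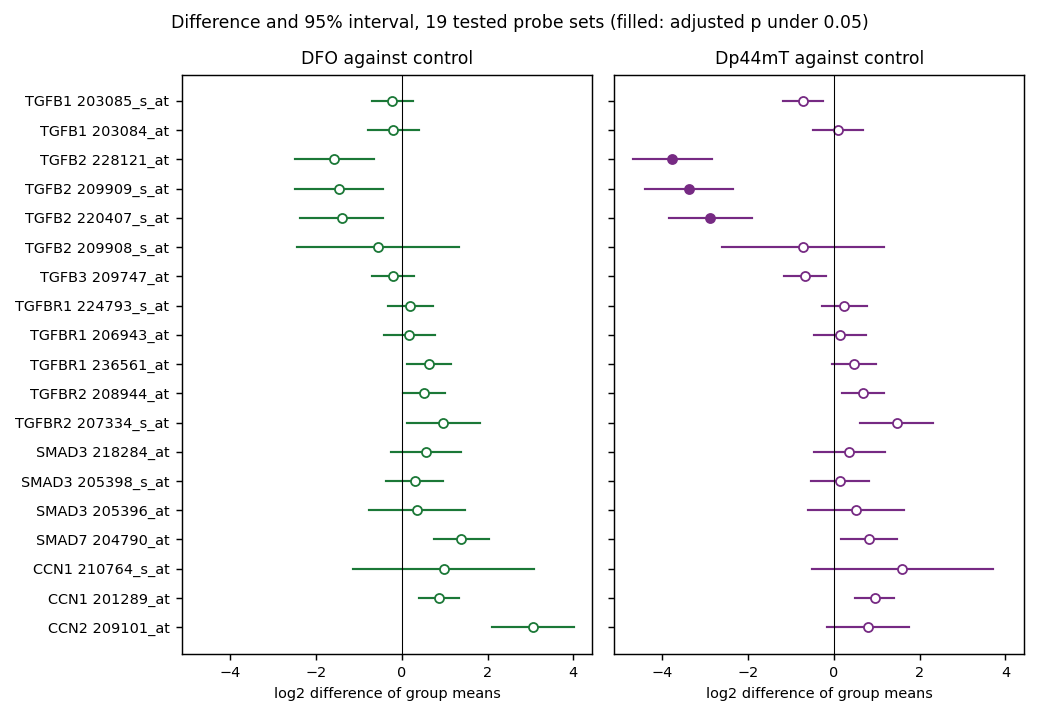
Log2 differences of group means (x axis) with 95% intervals for the 19 tested probe sets (y axis), DFO on the left and Dp44mT on the right, 2 arrays per group; filled points passed an adjusted p of 0.05. The 3 filled points are TGFB2 probe sets under Dp44mT at -2.89 to -3.77, and the point farthest to the right is CCN2 under DFO at 3.05.

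TGFB2, the ligand with the widest differences, was lower under both chelators. Its brightest probe set, 228121_at, read 1349 and 1246 in the controls, 628 and 179 under DFO, and 78.1 and 33.6 under Dp44mT. Every chelator array was below both controls, and both Dp44mT arrays were below both DFO arrays. The log2 difference was -1.58 (SE 0.37, interval -2.50 to -0.66, limma adjusted p = 0.216) for DFO. For Dp44mT it was -3.77 (SE 0.37, interval -4.69 to -2.85, limma adjusted p = 0.0215), or 13.7-fold lower. Between the chelators, which were used at different doses, it was -2.19 (interval -3.11 to -1.28, limma adjusted p = 0.969) and did not pass. It was -2.45 within set 1 and -1.94 within set 2. Deviations from the group means correlated at 0.83 between DFO and Dp44mT, and the fit counts such a shared shift as spread. Not passing thus does not show that the chelators were alike.

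The TGFB2 probe set 209909_s_at read 544 and 490 in the controls, 274 and 73.6 under DFO, and 36.6 and 12.0 under Dp44mT. The probe set 220407_s_at read 452 and 384, then 222 and 62.8, then 41.2 and 17.4, in the same order of groups. Both had the same order of arrays as 228121_at. Their differences were -1.46 (SE 0.41) and -1.40 (SE 0.39) for DFO, and -3.38 (SE 0.41, 10.4-fold lower) and -2.89 (SE 0.39, 7.39-fold lower) for Dp44mT. Under DFO the set 2 array was farther from the control mean than the set 1 array for all 3 probe sets, by -2.03 against -1.13 for 228121_at.

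The other TGFB2 probe sets did not share this pattern throughout. The probe set 209908_s_at read 136 and 116 in the controls, 67.1 and 60.8 under DFO, and 17.8 and 93.5 under Dp44mT. Its Dp44mT arrays lay on opposite sides of the control mean, at -1.94 and 0.49. Without both set 2 chelator arrays its Dp44mT difference of -0.73 (SE 0.76) became -1.94. The probe set 220406_at, below the filter, read between 23.5 and 41.8 in all 6 arrays.

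**Figure D2:**
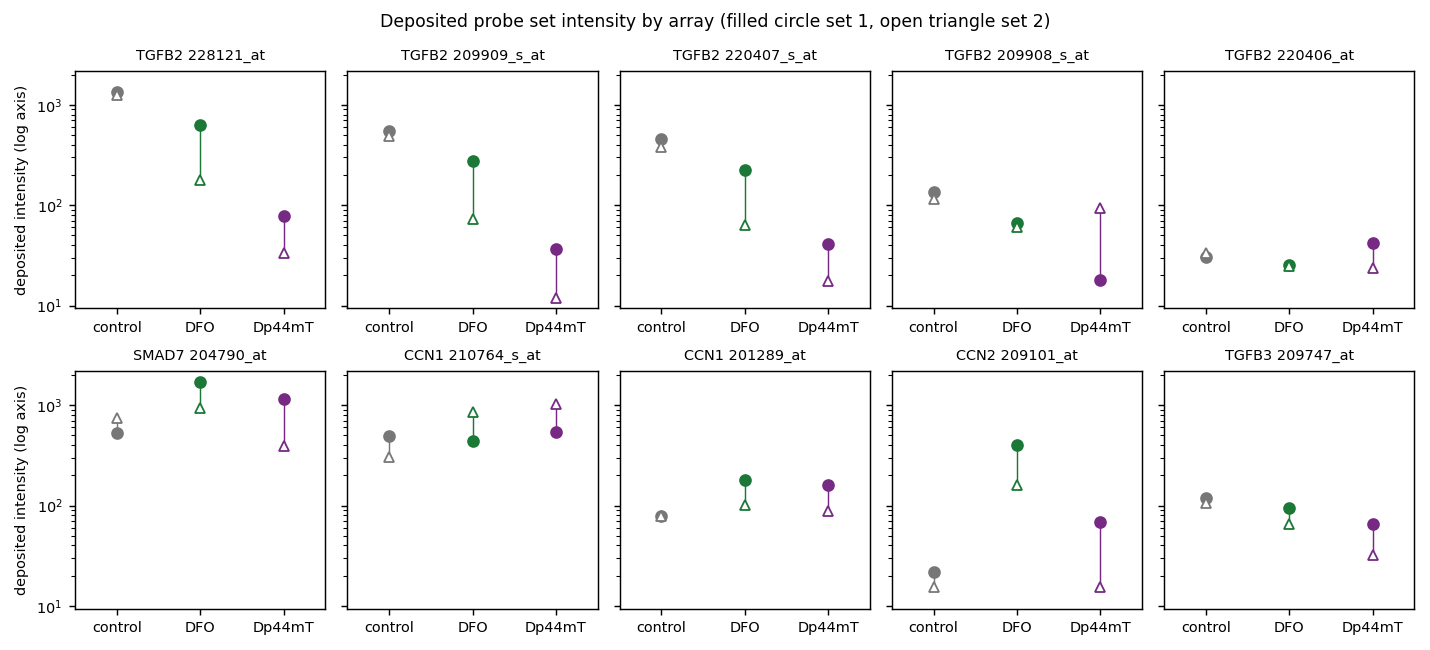
Deposited intensity (y axis, log scale) of the TGFB2, SMAD7, CCN1 and CCN2 probe sets and of TGFB3 209747_at in each of the 6 arrays, by group (x axis); filled circles are set 1, open triangles set 2, and lines join the 2 arrays of a group. TGFB2 228121_at steps down from 1349 and 1246 in the controls to 78.1 and 33.6 under Dp44mT, and CCN2 is at 403 and 159 under DFO against 21.6 and 15.3 in the controls.

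TGFB1, the most studied TGF-beta ligand, differed less. Its probe set 203085_s_at read 453 and 436 in the controls, 406 and 224 under DFO, and 236 and 115 under Dp44mT. On the normalised scale both Dp44mT arrays were below the other 4, while as deposited the set 1 Dp44mT array was above the set 2 DFO array. The log2 difference was -0.22 (SE 0.19, interval -0.69 to 0.25) for DFO and -0.72 (SE 0.19, interval -1.19 to -0.25) for Dp44mT. The second TGFB1 probe set, 203084_at, read 47.8 to 90.6 over the 6 arrays. It differed by -0.20 (SE 0.24) for DFO and 0.10 (SE 0.24) for Dp44mT, and the last value was -0.27 without scaling between arrays. It was -0.12 without both set 2 chelator arrays, and its interval of -0.50 to 0.69 gives it no direction.

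TGFB3, the ligand best known from palate development, read 120 and 106 in the controls, 93.9 and 65.2 under DFO, and 66.1 and 32.4 under Dp44mT with 209747_at. The order of the groups was that of TGFB2, with smaller gaps. The difference was -0.20 (SE 0.20, interval -0.69 to 0.29) for DFO and -0.67 (SE 0.20, interval -1.16 to -0.18) for Dp44mT. The probe set 1555540_at, below the filter, read 11.9 and 17.9 in the controls, 11.2 and 47.7 under DFO, and 21.3 and 54.5 under Dp44mT. It was highest in the set 2 chelator arrays.

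The type II receptor TGFBR2, which binds ligand, was higher under both chelators on the normalised scale. Its probe set 208944_at read 142 and 121 in the controls, 209 and 124.5 under DFO, and 215 and 103 under Dp44mT as deposited, so the set 2 Dp44mT array was below both controls before normalisation. After it, the difference was 0.51 (SE 0.20, interval 0.02 to 1.00) for DFO and 0.68 (SE 0.20, interval 0.19 to 1.17) for Dp44mT. Without scaling these values were 0.27 and 0.17. The dimmer probe set 207334_s_at read 20.4 and 36.7 in the controls, 91.9 and 41.5 under DFO, and 132 and 48.8 under Dp44mT. All 4 chelator arrays were above both controls, the set 1 arrays by more. Its difference was 0.97 (SE 0.34) for DFO and 1.47 (SE 0.34, interval 0.61 to 2.32) for Dp44mT. The last value was 1.65 with arrays scaled to a common trimmed mean, where it passed the threshold. It was 1.78 without both set 2 chelator arrays, a setting that leaves 1 array for each chelator.

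The type I receptor TGFBR1, the kinase that phosphorylates SMAD2 and SMAD3, gave small differences. Its 3 probe sets differed by 0.17 to 0.64 for DFO and 0.14 to 0.47 for Dp44mT. Without scaling, 224793_s_at was at -0.14 and -0.47 and 206943_at at -0.01 and -0.21, and with array medians subtracted 224793_s_at was at -0.09 for Dp44mT. The brightest, 224793_s_at, read 491 and 618 in the controls, 764 and 322 under DFO, and 560 and 276 under Dp44mT. As deposited, both set 2 chelator arrays were below the controls, and the set 1 DFO array was above them. Its interval was -0.33 to 0.72 for DFO and -0.29 to 0.77 for Dp44mT. The dimmest, 236561_at, was at 0.64 (interval 0.12 to 1.15) for DFO and 0.47 (interval -0.04 to 0.99) for Dp44mT, and passed in neither. Without scaling, 236561_at was at 0.48 and 0.23.

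SMAD3, the transducer that binds DNA, gave differences whose intervals all included 0. The 3 tested probe sets were at 0.30 to 0.56 for DFO and 0.14 to 0.51 for Dp44mT. For 218284_at the arrays read 91.7 and 86.5 in the controls, 144 and 95.2 under DFO, and 77.2 and 89.4 under Dp44mT. Its difference was 0.56 (SE 0.33) for DFO and 0.36 (SE 0.33) for Dp44mT. The last value was -0.08 without scaling and -0.10 without both set 2 chelator arrays. That of 205398_s_at was -0.20 without scaling.

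SMAD7, the inhibitory SMAD, read 524 and 752 in the controls, 1713 and 934 under DFO, and 1161 and 395 under Dp44mT. Both DFO arrays were above both controls as deposited, while the set 2 Dp44mT array was below them. The normalised difference was 1.38 (SE 0.26, interval 0.74 to 2.03), or 2.61-fold higher, for DFO and 0.82 (SE 0.26, interval 0.17 to 1.46) for Dp44mT. Without scaling these values were 0.99 and 0.11. The threshold was passed in neither comparison.

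CCN2, the connective tissue growth factor, was higher in both DFO arrays than in any other array. It is measured by 1 probe set, 209101_at, which read 21.6 and 15.3 in the controls, 403 and 159 under DFO, and 68.1 and 15.6 under Dp44mT. The set 1 Dp44mT array was above both controls, and the set 2 Dp44mT array was at the level of the controls as deposited. The log2 difference was 3.05 (SE 0.38, interval 2.10 to 4.01, limma adjusted p = 0.0509), or 8.30-fold higher, for DFO. For Dp44mT it was 0.79 (SE 0.38, interval -0.16 to 1.75). Between the chelators it was -2.26 (interval -3.22 to -1.31, limma adjusted p = 0.969) at different doses and did not pass. It was -2.03 within set 1 and -2.50 within set 2, and the fit counts a shift shared by a set as spread.

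By p-value, CCN2 ranked 247 of 40950 for DFO, where 241 probe sets passed. It passed in 7 of 17 alternative settings, 1 probe set per gene among them, with differences of 1.97 to 3.30 in those 7. The 17 include leaving out either Dp44mT array, which repeats the fit with only the 2 groups compared, where it did not pass. They also include leaving out either control or either DFO array. Those fits keep 1 array in a compared group and bear on no single gene, so 7 of 17 is not a pass rate. Without both set 2 chelator arrays, 1 of those 7 settings, it was 3.30 for DFO and 1.27 for Dp44mT. The spread in that fit comes from the 2 controls alone. The controls are near the bottom of the intensity range, so the pseudocount of 16 lowers this fold change: with a pseudocount of 1 the DFO value was 3.91, which did not pass.

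CCN1, an immediate early relative of CCN2, was read by 2 probe sets that disagree between arrays. The probe set 201289_at read 78.9 and 78.6 in the controls, 179 and 102 under DFO, and 158 and 88.4 under Dp44mT. All 4 chelator arrays were above both controls. The difference was 0.87 (SE 0.18, interval 0.41 to 1.33) for DFO and 0.95 (SE 0.18, interval 0.49 to 1.41) for Dp44mT, and after normalisation the 4 chelator arrays lay 0.80 to 0.96 above the control mean. Without scaling the differences were 0.68 and 0.51.

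The brighter CCN1 probe set, 210764_s_at, read 491 and 306 in the controls, 440 and 860 under DFO, and 543 and 1023 under Dp44mT. Here only the set 2 chelator arrays were far from the controls. They lay 1.91 and 2.53 above the control mean, against 0.04 and 0.65 for set 1. The mean difference was 0.98 (SE 0.84, interval -1.13 to 3.09) for DFO and 1.59 (SE 0.84, interval -0.52 to 3.70) for Dp44mT. Without both set 2 chelator arrays these were 0.04 and 0.65.

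Some markers of fibroblasts moved between the arrays along with this probe set, as did genes that are not in that list. For example, LDLRAD4, from the list of SMAD and receptor inhibitors, was also lowest in the set 2 control. It read 71.5 and 25.2 in the controls, 69.3 and 97.4 under DFO, and 96.7 and 121 under Dp44mT. The summed deposited intensity of 12 fibroblast markers was 2409 and 1264 in the controls, 2035 and 2694 under DFO, and 2060 and 2457 under Dp44mT. The collagen genes COL1A2, COL3A1 and COL5A1 and the matrix genes DCN and POSTN were lowest in the set 2 control, as was CCN1 210764_s_at, and these 5 were chosen after their values were seen. The other 7 markers were not lowest there, and COL6A3, for example, was at -0.41 for DFO and -0.55 for Dp44mT. COL1A2 read 265 and 37.2 in the controls, 227 and 369 under DFO, and 184 and 329 under Dp44mT. The 9 endothelial markers summed to 1154 and 622 in the controls, 1187 and 1498 under DFO, and 1024 and 1366 under Dp44mT. Only PECAM1, ROBO4 and ESAM of these 9 were lowest in the set 2 control, and CLDN5 and ESAM were below the filter. The leukocyte markers summed to 704 to 1023 in all 6 arrays. The defining markers PTPRC, CDH5 and PDGFRB were below the filter, and CDH5, an endothelial cadherin, read 0.0187 to 12.6. The labels name only DMS-53 cells, and whether cells of any other type were present was not tested. In bulk samples such as these, fewer cells of a type and less RNA per cell cannot be told apart. The part of these signals in the CCN1 values was not tested.

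**Figure D3:**
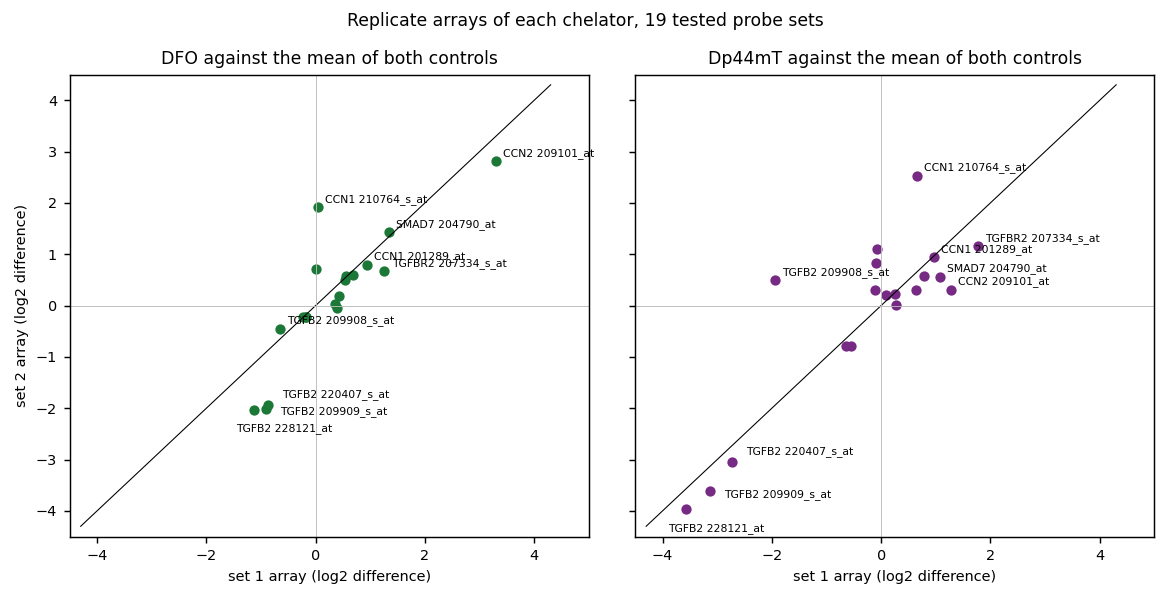
Log2 difference of the set 1 array (x axis) and of the set 2 array (y axis) of each chelator from the mean of both controls, for the 19 tested probe sets; the diagonal marks equal values in both arrays. TGFB2 228121_at lies near the diagonal at -3.58 and -3.97 under Dp44mT, while CCN1 210764_s_at lies far above it, at 0.04 and 1.91 under DFO.

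The other genes of the pathway were counted from lists, with 1 probe set for each gene. On that basis 0.794% of 16868 genes passed for DFO and 2.06% for Dp44mT, and 0 genes of any list passed for Dp44mT against DFO. Among 15 genes that store, release or activate latent TGF-beta, 0 passed for DFO and 1 fell for Dp44mT. This was ITGB8, a subunit of an integrin that activates latent TGF-beta. It read 852 and 1020 in the controls, 598 and 238 under DFO, and 164 and 78.1 under Dp44mT. Its difference was -0.93 for DFO (limma adjusted p = 0.238) and -2.28 for Dp44mT (limma adjusted p = 0.0231), with every chelator array below both controls.

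Among 13 further receptors and co-receptors, 0 passed in either comparison. The smallest p over the 3 comparisons was that of NRP1, a co-receptor for TGF-beta and semaphorins, for Dp44mT against DFO at -1.48 (limma adjusted p = 0.969). It read 328 and 198 in the controls, 901 and 349 under DFO, and 226 and 102 under Dp44mT. Against control it was at 1.35 for DFO (limma adjusted p = 0.21) and at -0.13 for Dp44mT. Among 9 SMAD transducers and cofactors 0 passed. The smallest p was that of SMAD4, the common partner of the receptor SMADs, at 0.77 for DFO and 0.93 for Dp44mT (limma adjusted p = 0.251 and 0.0862).

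Of 17 inhibitors of the receptors and SMADs, 1 rose for DFO and 2 rose for Dp44mT. BAMBI, a decoy receptor without a kinase domain, read 999 and 1171 in the controls, 3487 and 1862 under DFO, and 2668 and 1282 under Dp44mT. It rose by 1.63 for DFO (limma adjusted p = 0.0390) and by 1.45 for Dp44mT (limma adjusted p = 0.0340). NEDD4L, a ubiquitin ligase that targets activated SMADs, rose by 1.57 for Dp44mT (limma adjusted p = 0.0327), and it was 2.84-fold higher under DFO (limma adjusted p = 0.0514). The median of the list was 0.09 for DFO and -0.02 for Dp44mT.

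Of 25 TGF-beta target genes, 2 rose under each chelator. TGFBI, a secreted matrix protein named for its induction by TGF-beta, read 91.5 and 113 in the controls, 930 and 574 under DFO, and 732 and 442 under Dp44mT. It rose by 2.87 for DFO, or 7.33-fold, and by 2.89 for Dp44mT, or 7.39-fold (limma adjusted p = 0.0177 and 0.0128). KLF10, an early TGF-beta induced transcription factor, read 533 and 803 in the controls, 3175 and 1736 under DFO, and 2904 and 1309 under Dp44mT. It rose by 2.23 and 2.25 (limma adjusted p = 0.0273 and 0.0210). The list median was 0.37 for DFO and 0.66 for Dp44mT, beside -0.04 and 0.01 over all tested probe sets, and the list includes collagen genes that were lowest in the set 2 control.

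Of 21 other ligands and antagonists of the superfamily, 1 rose under each chelator. This was GDF15, a distant member of the family known to be induced by cell stress. It read 1230 and 910 in the controls, 7208 and 3918 under DFO, and 4690 and 2918 under Dp44mT. It rose by 2.69 for DFO and by 2.34 for Dp44mT (limma adjusted p = 0.0329 and 0.0327). In all 4 chelator arrays GDF15 was above both controls.

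For the CCN side of the group, 0 of 3 other CCN genes passed. The smallest unadjusted p over the 3 comparisons was that of CCN6 for Dp44mT against DFO, at 0.40 (limma adjusted p = 0.969). Against control CCN6 was at -0.25 for DFO and 0.15 for Dp44mT, the last at -0.17 without scaling. Of 30 YAP and TEAD factors and target genes, 0 passed for DFO and 1 rose for Dp44mT. It was GADD45A, a growth arrest gene induced by DNA damage and other stress, at 1.49 (limma adjusted p = 0.0367), with a DFO value of 1.30 (limma adjusted p = 0.0776). The list median was 0.08 for DFO and -0.04 for Dp44mT.

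Of 16 integrins and proteoglycans that bind CCN proteins, 0 passed for DFO and 1 fell for Dp44mT. SDC1, a cell surface heparan sulphate proteoglycan of epithelial cells, read 1215 and 1768 in the controls, 964 and 465 under DFO, and 417 and 187 under Dp44mT. It fell by 1.61 for Dp44mT (limma adjusted p = 0.0340), and its DFO difference was -0.73 (limma adjusted p = 0.28).

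**Figure D4:**
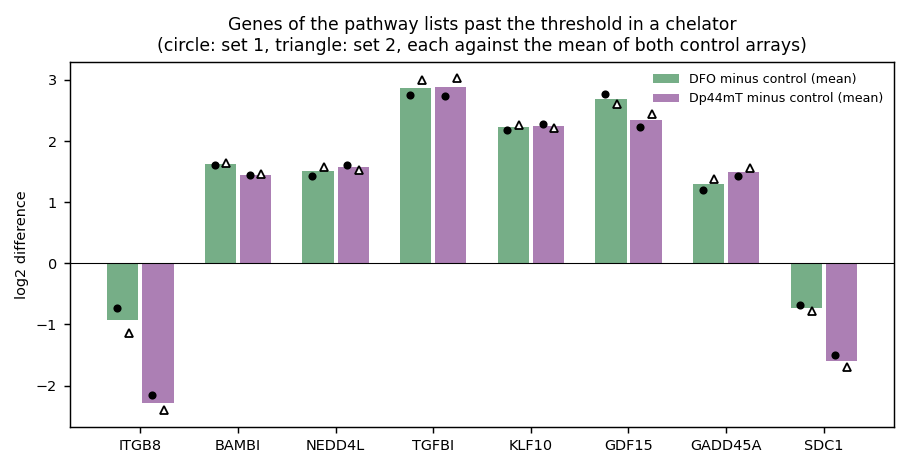
Mean log2 difference from control (y axis, bars) for the 8 pathway genes that passed the threshold in at least 1 chelator, with the set 1 (circles) and set 2 (triangles) arrays each against the mean of both controls, 2 arrays per group. TGFBI, KLF10 and GDF15 are between 2.23 and 2.89 under both chelators, and ITGB8 is at -0.93 under DFO and -2.28 under Dp44mT.

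Of 9 neuroendocrine markers, ENO2, a neuronal enolase of glycolysis, rose by 1.74 for DFO and 2.03 for Dp44mT (limma adjusted p = 0.0427 and 0.0217). ENO2 went against the list median, which was -0.35 for DFO and -0.50 for Dp44mT. INSM1 fell by 3.37 for Dp44mT (limma adjusted p = 0.0154) and was at -2.21 for DFO (limma adjusted p = 0.0523). Of 5 epithelial, 10 fibroblast, 6 endothelial and 5 leukocyte markers tested, 0 passed. The smallest p in each, over the 3 comparisons, was that of CDH1, COL6A3, KDR and ITGB2, in that order.

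These calls rest on few arrays. When any 1 array of the 2 groups compared was left out, 0 probe sets of the whole array passed limma's threshold (1687 to 12657 had an unadjusted p under 0.05), so those fits bear on no single gene. The differences kept their direction but moved by amounts that varied between genes. BAMBI was at 1.60 to 1.65 and GDF15 at 2.35 to 3.03 for DFO. For Dp44mT, TGFBI was at 2.74 to 3.03 and INSM1 at -3.11 to -3.62. The 3 TGFB2 probe sets were at -2.73 to -3.98 for Dp44mT. When only the 2 groups compared were fitted, the differences were unchanged and the spread came from fewer arrays. There 6 of the 15 calls of pathway and marker genes named above were kept. The other 9 were lost, with limma adjusted p of 0.0515 to 0.0886, and the 3 TGFB2 calls were kept. Leaving out 1 array of the group not compared gave this same fit, so it cannot show dependence on a single array. Without both set 2 chelator arrays, each chelator keeps 1 array and the spread comes from the 2 controls alone. Passing in that fit cannot show that a call is stable.

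Genes with profiles most like the members were found among 16867 others by the root mean square difference of mean-centred log2 values over the 6 arrays, as a description. The profile of TGFB2 228121_at, whose own root mean square deviation was 1.58, was nearest to LMO3 at 0.24, then AMIGO2 at 0.34, NPTX1 at 0.41, SLC35D3 at 0.45 and PRMT6 at 0.49. LMO3 is a LIM-domain transcriptional cofactor, and it differed from control by -1.88 under DFO and -3.72 under Dp44mT. AMIGO2, a membrane adhesion protein, was at -1.84 and -3.33. CCN2, with a deviation of 1.33, had no neighbour as close as LMO3 was to TGFB2. NRXN3, a synaptic adhesion gene, was nearest at 0.47, followed by CABP7, ESRRG, PPFIA4 and FAM13A-AS1 at 0.66 to 0.72.

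CCN1 210764_s_at, with a deviation of 1.03, was nearest to MS4A6A at 0.08, ZFP92 at 0.10, ZMYND10 at 0.10, ZNF551 at 0.11 and SLC22A16 at 0.11. These 5 genes were at 0.85 to 1.07 for DFO and 1.42 to 1.57 for Dp44mT. The set 2 chelator arrays, the highest in these profiles, were the dimmest as deposited, and the part of this in the profiles was not tested.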

How the data were processed

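Total RNA of DMS-53 cells was measured on 6 arrays in 3 groups. The authors deposited a linear intensity for each probe set. Per the submitters' processing notes, Affymetrix Expression Console 1.1 was used. How they were summarised or normalised is not given in the sources used here. Gene symbols came from the platform's annotation: 41097 probe sets have 1 symbol, 1801 several and 11777 none, and only those with 1 symbol were named.

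From the deposited intensities, log2(intensity + 16) was computed and quantile normalised over the 6 arrays in R 4.3.3. limma 3.58.1 was fitted with 3 group means (3 residual and 2.53 prior degrees of freedom) to the 40950 probe sets tested. The test was two-sided with Benjamini-Hochberg adjustment over all of them, and was tested on simulated data. With 2 arrays per group precision was limited, and 95% intervals reached a median of 0.68 log2 units to each side. A fold change on this scale understates differences of dim probe sets.

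The members and gene lists were chosen with earlier results of these data known. All member probe sets were named. From each list, genes past the threshold were named, up to 6 by size, or else the gene with the smallest p. Lists used the probe set with the highest mean. Alternatives changed the scaling, pseudocount, filter, features, arrays, weights and set block. Sequences are RefSeq's.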

Additional observations from a re-analysis of the deposited data

How the results depend on the processing

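Counts for DFO and Dp44mT, 241 and 670 in the reported fit, were 31 and 39 without scaling, 144 and 363 with array medians subtracted, 272 and 1078 with a common trimmed mean, 156 and 342 with a pseudocount of 1, 437 and 1433 with a pseudocount of 64, 393 and 1114 with a filter at the 50th percentile, 57 and 469 with only the groups compared, 384 and 1652 with array weights, and 367 and 3194 without both set 2 chelator arrays, a fit whose spread comes from the 2 controls alone. Leaving out 1 array of the group not compared repeated the fit with only the groups compared. Leaving out 1 array of a compared group keeps 1 array there, and such fits assume that it varies like the others. Dp44mT against DFO gave 0 in every setting. For DFO, 1 member probe set (CCN2) passed with array medians subtracted, a common trimmed mean, a pseudocount of 64, 1 probe set per gene, array weights or without both set 2 chelator arrays. For Dp44mT, 3 members passed in the reported fit, 2 without scaling or with a pseudocount of 1 (TGFB2 220407_s_at was lost, at -3.31 and -3.39, with limma adjusted p of 0.0703 and 0.0510), 4 with a common trimmed mean (TGFBR2 207334_s_at was added), 1 (TGFB2) with 1 probe set per gene, 7 without both set 2 chelator arrays, and 0 to 3 without 1 array. The share of calls that were higher was 96.7% for DFO and 65.5% for Dp44mT in the reported fit, 77.4% and 38.5% without scaling. For Dp44mT it was also 50.4% with array medians subtracted and 51.4% with a common trimmed mean. Without scaling the median of all probe sets shifted to -0.30 and -0.46, and with a trimmed mean that for Dp44mT was 0.11. The cause of these changes was not tested.

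The labels do not say what a set is, and the set numbers did not meet the criterion for pairing, a correlation above 0.1 for every pair of groups: deviations from group means correlated at -0.23 between control and DFO, -0.33 between control and Dp44mT and 0.83 between DFO and Dp44mT. With the set number as a block, 208 and 1245 probe sets passed, and 1 member (CCN2) passed for DFO.

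No member or named gene that passed in the reported fit changed direction in any setting run. For Dp44mT, TGFB2 209908_s_at was at -1.94 without both set 2 chelator arrays and at 0.49 without the set 1 Dp44mT array. TGFB2 228121_at was at -3.12 to -4.26 for Dp44mT over the 18 settings. These settings are not independent, since leaving out either DFO array repeats the fit with only the 2 groups compared.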
